A study of Homo sapiens with 12 samples.

Results

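The genes described here encode the signalling core of the Wnt pathway: ligands, their Frizzled and LRP receptors, the Dishevelled proteins, the destruction complex around the kinase GSK3, the TCF/LEF transcription factors and the inhibitors of the pathway. They are a list of 40 gene symbols, taken by name. Of these, 38 had a probe set annotated to exactly that symbol, among 18417 genes with such a probe set. The exceptions were CSNK1E, whose only probe set is shared with a readthrough gene, and TCF7, for which the annotation used here lists no probe set. DKK3 alone had more than 1 probe set, and the one with the higher mean was taken.

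Wnt ligands bind a Frizzled receptor together with LRP5 or LRP6. In the absence of ligand, the scaffold AXIN and the tumour suppressor APC hold beta-catenin for phosphorylation by casein kinase 1 and GSK3, after which the ubiquitin ligase that contains BTRC marks it for degradation. Bound receptors recruit Dishevelled and AXIN to the membrane, beta-catenin escapes degradation, and in the nucleus it joins TCF/LEF factors at target genes. In the osteoblast lineage, from which osteosarcoma cells such as U2OS derive, this pathway is known for promoting bone formation, and mutations of LRP5 alter human bone mass.

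RNA came from U2OS-ERα cells, a human osteosarcoma line that carries estrogen receptor α. Whether the line is a single clone is not given in the sources used here. All cells received 50 nM of an siRNA pool and were kept in medium with charcoal-stripped serum, and the last 3 h were spent with 17β-estradiol or with its ethanol vehicle. The 4 groups, with 3 biological replicates each as labelled, were SRC-1 siRNA with estradiol, SRC-1 siRNA with vehicle, non-targeting siRNA with estradiol, and non-targeting siRNA with vehicle. SRC-1, encoded by NCOA1, is a coactivator that nuclear receptors recruit. The design also names an siRNA pool against GSK3, and such cells are not analysed here. P-values measure the spread among these replicates.

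NCOA1 transcripts averaged 6.86 and 5.86 log2 with SRC-1 siRNA under estradiol and vehicle, against 9.08 and 8.79 log2 with non-targeting siRNA, and were 4.64-fold and 7.60-fold lower (limma adjusted p = 7.92e-06 and 7.3e-07). NCOA1 was itself called higher with estradiol than with vehicle in SRC-1 siRNA cells (1.00 log2, limma adjusted p = 0.00029). With non-targeting siRNA this difference was 0.29 log2 (0.275), and the difference between the 2 effects, 0.71 log2, was not called (0.442). The estradiol comparison with SRC-1 siRNA thus spans 2 levels of NCOA1 transcripts, whose part in the results below was not tested. ESR1, which encodes the receptor, lay between 12.03 and 12.16 log2 in every group and was not called in any comparison. The 6 osteoblast and osteosarcoma markers averaged 12.54 (SPARC), 9.41 (SPP1), 9.12 (COL1A1), 7.58 (ALPL), 7.21 (RUNX2) and 6.62 log2 (COL1A2). The mesenchymal genes VIM, FN1 and CDH2 averaged 12.46, 11.69 and 11.13 log2. Of these, SPP1 was called lower with SRC-1 siRNA under estradiol and vehicle (-0.87 and -0.71 log2, limma adjusted p = 8.21e-05 and 0.000541), as was ALPL (-0.43 and -0.23 log2, 0.00089 and 0.031). COL1A2 was called lower with estradiol in SRC-1 siRNA cells (-0.22 log2, 0.047), and CDH2 higher with SRC-1 siRNA under estradiol (0.25 log2, 0.0107). Their part in the results below was not tested. Of 6 leukocyte and endothelial markers, PTPRC (4.19) and PECAM1 (5.10) were under the arrays' lower quartiles, 5.13 to 5.19 log2, and CD3E, CD14, CDH5 and VWF averaged 5.67 to 6.10 log2. The epithelial markers KRT8, KRT18, EPCAM and CDH1 averaged 11.16, 11.91, 7.35 and 5.92 log2. Array medians lay between 6.86 and 6.90 log2, and a difference between groups had a standard error of 0.071 log2 at the median. The 4203 probe sets taken as array controls, which were left out of the tests, had a mean deviation 0.226 log2 higher with estradiol than with vehicle in SRC-1 siRNA cells and 0.109 log2 higher in non-targeting siRNA cells. Each estradiol call is therefore also given with their array mean as a covariate, which separates estradiol from vehicle arrays and so raises the standard errors of estradiol effects. Their part in these results was not tested in any other way.

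FZD1 and FZD5 were the Frizzled genes called lower with estradiol, in SRC-1 siRNA cells only. The 250 bases before their transcription starts are shown in the direction of the gene, as RefSeq gives them for GRCh38.p14. FZD1 is on chr7:91264183-91264432 on the plus strand and FZD5 on chr2:207769907-207770156 on the minus strand. Capitals mark half-sites of the estrogen response element, GGTCA or TGACC.
FZD1: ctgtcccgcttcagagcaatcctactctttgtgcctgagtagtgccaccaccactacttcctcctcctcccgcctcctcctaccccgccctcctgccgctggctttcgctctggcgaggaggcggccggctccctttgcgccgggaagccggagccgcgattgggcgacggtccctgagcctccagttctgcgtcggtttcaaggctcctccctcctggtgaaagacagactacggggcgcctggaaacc
FZD5: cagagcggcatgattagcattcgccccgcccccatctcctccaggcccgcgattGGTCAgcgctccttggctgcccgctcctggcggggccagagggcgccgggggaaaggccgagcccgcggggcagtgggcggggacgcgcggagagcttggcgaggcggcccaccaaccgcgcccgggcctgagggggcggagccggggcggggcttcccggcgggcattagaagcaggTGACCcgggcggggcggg
The FZD5 window holds half-sites at positions -196 and -18 from the start, and the FZD1 window holds none. Among all 35116 RefSeq promoter windows of this length, 32.6% hold at least 1 half-site on either strand, and 10 of the 26 genes of the group with a window here do (APC, CSNK1E, DVL2, FZD5, FZD8, GSK3A, LEF1, NKD2, TCF7 and TCF7L2). The percentages count windows, whereas a gene of the group counts if any of its windows holds the motif. As the 26 genes have 35 windows, the 2 measures are not alike. The full element GGTCANNNTGACC was found in 0.0399% of all windows and in 0 of the 26. The TCF/LEF motif CTTTGAT or its complement ATCAAAG was found in 2.26% of all and in 0 of the 26, and CTTTGAA or its complement TTCAAAG in 3.8% of all and in 1 of the 26, DKK1. Both windows are rich in G and C, at 65.2% for FZD1 and 76.8% for FZD5, against a median of 58% over all windows. No window was at hand for AXIN2, BTRC, CSNK1D, DKK3, FZD2, FZD3, FZD6, FZD7, LRP6, NKD1, SFRP1, WNT11, WNT7B and ZNRF3.

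The first comparison asks what 3 h of estradiol did to these genes in cells with SRC-1 siRNA and in cells with non-targeting siRNA. Estradiol raised SFRP1, a secreted antagonist that binds Wnt ligands, with either siRNA, and with SRC-1 siRNA it also raised the coreceptor gene LRP6 and lowered the receptor genes FZD1 and FZD5. No ligand, Dishevelled, destruction complex or TCF/LEF gene passed the test with the fit as described. In some other settings the ligand genes WNT5B and WNT11 and the destruction complex gene CSNK1D did, with SRC-1 siRNA. The study's thresholds were kept: a call needed a limma p under 0.01 that also stayed under 0.05 after Benjamini-Hochberg adjustment over 29094 probe sets. With SRC-1 siRNA, 4 of the 38 genes were called, 2 higher and 2 lower, where 6.88% of all tested probe sets were, 4.49% higher and 2.39% lower. With non-targeting siRNA, 1 of the 38 was called, higher, and 0 lower, where 2.73% of all were, 1.85% higher and 0.873% lower. None of the 4 calls with SRC-1 siRNA held when the fit was restricted to the 6 arrays compared (adjusted p = 0.0908 to 0.117). The median difference over the 38 was -0.01 log2 with SRC-1 siRNA and 0.01 log2 with non-targeting siRNA, against -0.02 and -0.01 log2 over all tested probe sets. In bulk RNA, fewer cells that express a gene and less of its RNA per cell cannot be told apart.

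**Figure D1:**
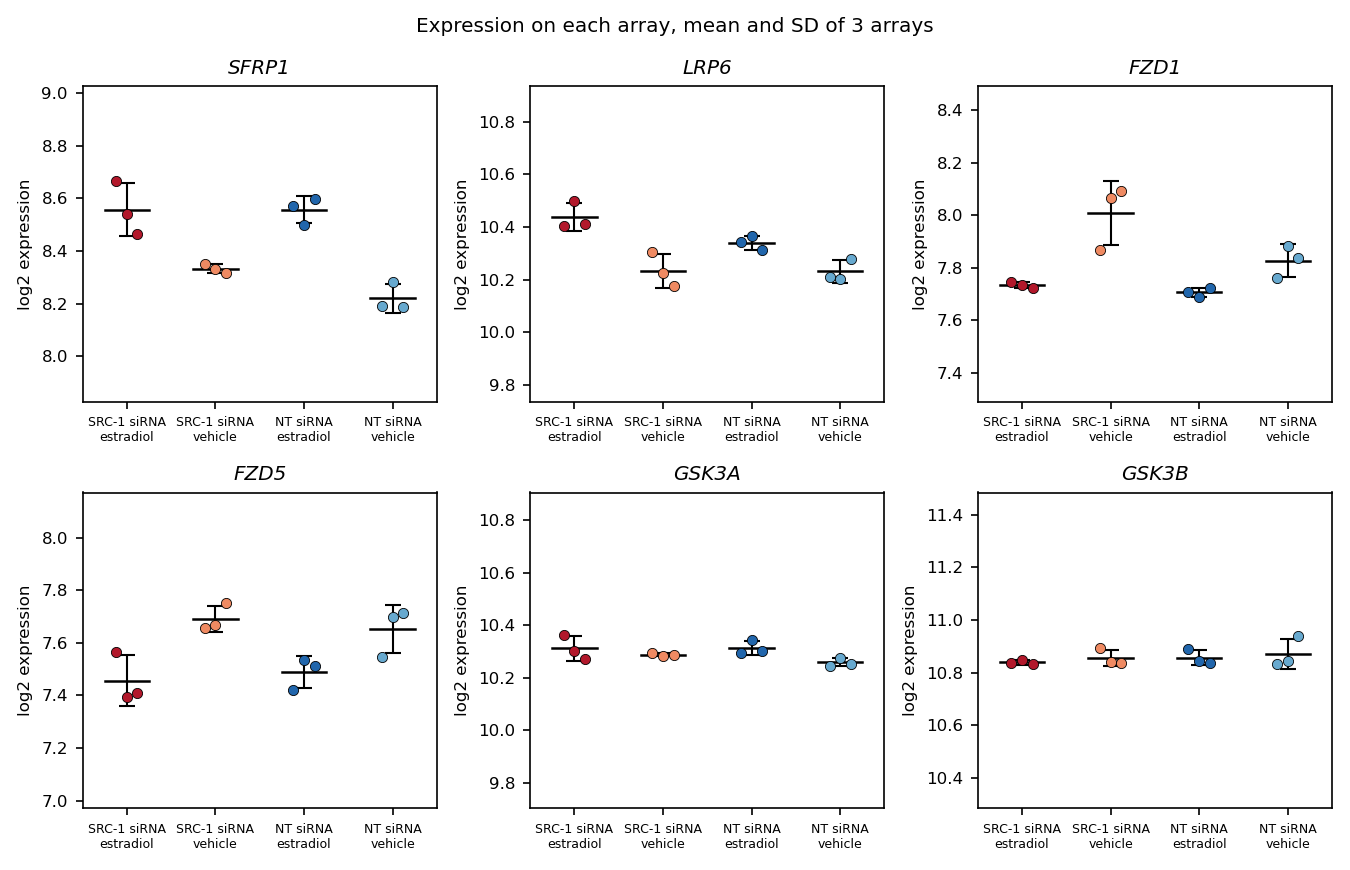
Each point is 1 array, with log2 expression on the vertical axis, the 4 groups along the horizontal axis, lines for the mean and bars for the SD (n = 3), and every panel spanning the same range. The SFRP1 and LRP6 points of both estradiol groups lie above those of their vehicle groups and the FZD1 and FZD5 points below, while those of GSK3A and GSK3B stay between 10.25 and 10.36 and between 10.83 and 10.94 log2.

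SFRP1 read 8.67, 8.54 and 8.47 log2 on the arrays with SRC-1 siRNA and estradiol, against 8.35, 8.33 and 8.32 log2 on those with SRC-1 siRNA and vehicle. With non-targeting siRNA it read 8.57, 8.50 and 8.60 log2 under estradiol, against 8.19, 8.28 and 8.19 log2 under vehicle. Every estradiol array thus lay above every vehicle array of either siRNA. SFRP1 rose 1.17-fold with SRC-1 siRNA, by 0.22 ± 0.06 log2 (SE, limma adjusted p = 0.0347). In the cells with non-targeting siRNA it rose 1.26-fold, by 0.34 ± 0.06 log2 (adjusted p = 0.00586). The difference between these rises was -0.11 log2, with a 95% interval from -0.28 to 0.06. With non-targeting siRNA the call held without any single array (adjusted p 0.00297 to 0.0328) and was missed with the covariate, at 0.37 ± 0.08 log2 (adjusted p = 0.0577). With SRC-1 siRNA it was lost without estradiol replicate 1 (0.116) or 2 (0.0637) or vehicle replicate 2 (0.105) or 3 (0.101) of that siRNA, without estradiol replicate 1 of the non-targeting siRNA (0.0504), with a renewed quantile normalization (0.0519), and with the covariate, at 0.29 log2 (0.517).

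LRP6 encodes the coreceptor that carries the Wnt signal to AXIN. It read 10.41, 10.50 and 10.41 log2 with SRC-1 siRNA and estradiol, against 10.30, 10.22 and 10.17 log2 with SRC-1 siRNA and vehicle. Non-targeting siRNA arrays read 10.34, 10.37 and 10.31 log2 under estradiol, against 10.21, 10.20 and 10.28 log2 under vehicle. Neither siRNA showed any overlap between the treatments. LRP6 rose by 0.20 ± 0.05 log2 with SRC-1 siRNA (limma adjusted p = 0.0278), and the difference with non-targeting siRNA was 0.11 log2 (adjusted p = 0.355), with a difference between the effects of 0.09 log2 (95% interval -0.05 to 0.24). The call was lost without any one of the SRC-1 siRNA arrays except vehicle replicate 1 (adjusted p = 0.0547, 0.0813 and 0.0557 without estradiol replicates 1, 2 and 3, 0.0924 and 0.101 without vehicle replicates 2 and 3), and with the covariate, at 0.19 log2 (0.649). The related coreceptor gene LRP5 differed by 0.12 log2 (adjusted p = 0.241) with SRC-1 siRNA and by -0.10 log2 (adjusted p = 0.494) with non-targeting siRNA.

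FZD1, a receptor known to signal through beta-catenin, read 7.75, 7.73 and 7.72 log2 with SRC-1 siRNA and estradiol, against 7.87, 8.07 and 8.09 log2 with SRC-1 siRNA and vehicle. Under non-targeting siRNA the values were 7.71, 7.69 and 7.72 log2 with estradiol, against 7.76, 7.88 and 7.84 log2 with vehicle. All 6 estradiol arrays lay between 7.69 and 7.75 log2, below all vehicle arrays, and the vehicle arrays with SRC-1 siRNA spread over the widest range. FZD1 fell by 0.27 log2 with SRC-1 siRNA (SE 0.06, 1.21-fold lower, limma adjusted p = 0.0172), and the difference with non-targeting siRNA was -0.12 log2 (adjusted p = 0.415). The call was lost without estradiol replicate 1 (0.0506) or 3 (0.0566) or vehicle replicate 2 (0.0769) or 3 (0.0692) of the SRC-1 siRNA, and with the covariate the difference was -0.06 log2 (0.921).

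FZD5, another Frizzled receptor, read 7.57, 7.39 and 7.41 log2 with SRC-1 siRNA and estradiol, against 7.66, 7.67 and 7.75 log2 with SRC-1 siRNA and vehicle. Its non-targeting siRNA arrays read 7.42, 7.53 and 7.51 log2 under estradiol, against 7.55, 7.70 and 7.71 log2 under vehicle. The treatments did not overlap with either siRNA, although the gap with non-targeting siRNA was narrow. FZD5 fell by 0.23 log2 with SRC-1 siRNA (SE 0.06, limma adjusted p = 0.0496), and the difference with non-targeting siRNA was -0.16 log2 (adjusted p = 0.274). This call lay at the threshold: of the 12 fits without 1 array it held in 2, those lacking SRC-1 siRNA estradiol replicate 1 (0.0324) or non-targeting siRNA vehicle replicate 1 (0.0409), and had an adjusted p of 0.0546 to 0.153 in the others. It was also lost with the replicate number as a block (0.0638), with median centring (0.0762) and with the covariate, at -0.20 log2 (0.718).

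Among the 8 Frizzled genes of the group, the differences with estradiol were mostly below 0. With SRC-1 siRNA 6 of the 8 were negative, with a median of -0.21 log2, and with non-targeting siRNA 7 of the 8, with a median of -0.14 log2. Over all tested probe sets, 16083 and 15867 of 29094 were negative in these comparisons. Of the 103 other Wnt pathway genes described below, 65 and 68 were. FZD2 differed by -0.25 log2 (adjusted p = 0.0684) and -0.23 log2 (0.175) in these comparisons, FZD8 by -0.22 log2 (0.0887) and -0.15 log2 (0.388), and FZD7 by -0.20 log2 (0.291) and -0.16 log2 (0.589). FZD2 and FZD8 were called with SRC-1 siRNA without the lowest 40% of probe sets (0.0364 and 0.0496) and with a trended and robust variance (0.0266 and 0.0422). FZD2 also was with a renewed quantile normalization (0.0377), and FZD8 with array weights (0.0408) and without SRC-1 siRNA vehicle replicate 1 (0.0214). FZD3, FZD4 and FZD6, of which FZD3 and FZD6 are known for planar cell polarity, lay between -0.09 and 0.05 log2 in both comparisons. Estradiol arrays lay below vehicle arrays with both siRNAs for FZD1, FZD2 and FZD5. The other Frizzled genes of the array, FZD9 and FZD10, are not among the 38 and differed by -0.29 log2 (adjusted p = 0.068) and -0.25 log2 (0.106) with SRC-1 siRNA and by -0.02 log2 (0.963) and -0.16 log2 (0.457) with non-targeting siRNA. Signs near 0 turned with scaling, that of FZD6 with SRC-1 siRNA and that of FZD3 with non-targeting siRNA under median centring. With the covariate 5 of the 8 differences were negative with SRC-1 siRNA (median -0.08 log2), with FZD7 at 0.11 and FZD8 at 0.07 log2, and 7 of the 8 with non-targeting siRNA (median -0.05 log2).

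**Figure D2:**
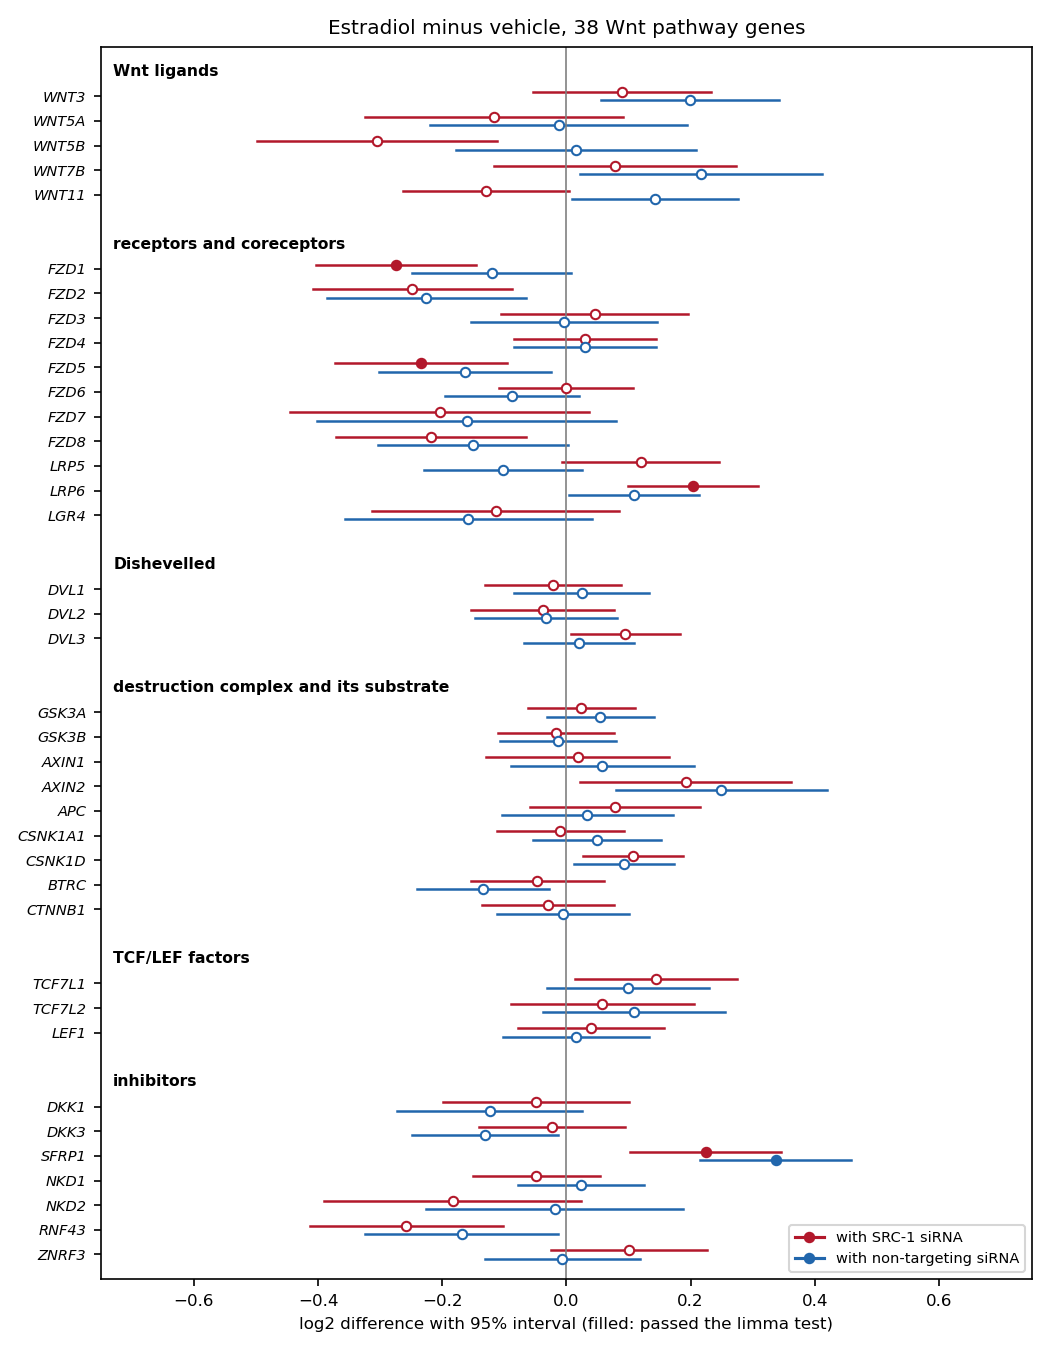
Log2 differences between estradiol and vehicle are drawn on the horizontal axis for each of the 38 genes, grouped by role, with SRC-1 siRNA (red) and non-targeting siRNA (blue). Lines are 95% intervals and filled points passed the test: SFRP1 with both siRNAs, and LRP6, FZD1 and FZD5 with SRC-1 siRNA.

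The estradiol comparisons of the 2 siRNAs share no array, so their signs could be set side by side. Of the 38 genes, 30 (78.9%) differed in the same direction with both siRNAs, against 66.4% of all tested probe sets. The share was 79.6% among the 103 other pathway genes described below, so it was not particular to the 38. Arrays of estradiol and vehicle did not overlap, in the same direction with both siRNAs, for 18.4% of the 38 genes and 8.62% of all probe sets. For the 103 other pathway genes this share was 24.3%. Among the 38, such genes were LRP6, SFRP1 and the casein kinase gene CSNK1D, higher with estradiol, and FZD1, FZD2, FZD5 and RNF43, lower with estradiol. In the single comparisons, 5 of the 38 lay apart on the higher side and 6 on the lower with SRC-1 siRNA, where 12.9% and 12.8% of all probe sets did, and 10 and 9 with non-targeting siRNA, where 10.1% and 10.9% did.

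The 5 ligand genes comprise WNT3, which signals through beta-catenin, WNT7B, known in bone-forming cells, and WNT5A, WNT5B and WNT11, known mainly for signalling without beta-catenin. WNT5B had the widest difference of the ligands with SRC-1 siRNA, reading 6.50, 6.64 and 6.52 log2 with estradiol against 6.74, 6.93 and 6.90 log2 with vehicle, a difference of -0.31 ± 0.09 log2 (SE, limma adjusted p = 0.0637). With non-targeting siRNA its difference was 0.02 log2. WNT5B was called with SRC-1 siRNA in other settings, among them a replicate block (0.0427) and array weights (0.0422). WNT11 differed by -0.13 log2 (adjusted p = 0.231) with SRC-1 siRNA and by 0.14 log2 (0.337) with non-targeting siRNA. WNT3 differed by 0.09 log2 (0.444) and 0.20 log2 (0.181) in the same comparisons, WNT7B by 0.08 log2 (0.641) and 0.22 log2 (0.311), and WNT5A by -0.12 log2 (0.498) and -0.01 log2 (0.973).

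GSK3A and GSK3B encode the kinases that phosphorylate beta-catenin and give the destruction complex its activity. GSK3A read 10.36, 10.30 and 10.27 log2 with SRC-1 siRNA and estradiol, against 10.29, 10.28 and 10.29 log2 with SRC-1 siRNA and vehicle, and 10.29, 10.35 and 10.30 log2 with non-targeting siRNA and estradiol, against 10.25, 10.28 and 10.25 log2 with non-targeting siRNA and vehicle. Its estradiol differences were 0.02 log2 (95% interval -0.06 to 0.11) with SRC-1 siRNA and 0.05 log2 (-0.03 to 0.14) with non-targeting siRNA. GSK3B read 10.84, 10.85 and 10.83 log2 with SRC-1 siRNA and estradiol, against 10.89, 10.84 and 10.84 log2 with SRC-1 siRNA and vehicle, and 10.89, 10.84 and 10.84 log2 with non-targeting siRNA and estradiol, against 10.83, 10.84 and 10.94 log2 with non-targeting siRNA and vehicle. Its differences were -0.02 log2 (-0.11 to 0.08) and -0.01 log2 (-0.11 to 0.08). The GSK3B groups overlapped in both comparisons, as did those of GSK3A with SRC-1 siRNA, while with non-targeting siRNA the GSK3A arrays under estradiol lay narrowly above those under vehicle. No 95% interval of an estradiol difference reached beyond 0.14 log2 for either kinase.

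The other members of the complex were not called either with the fit as described. Over all 9 of its measured genes, the 95% intervals of the estradiol differences reached from -0.15 to 0.36 log2 with SRC-1 siRNA and from -0.24 to 0.42 log2 with non-targeting siRNA. AXIN2, a scaffold whose gene is itself a classic target of beta-catenin, set the upper bounds. It read 7.52, 7.44 and 7.39 log2 with SRC-1 siRNA and estradiol, against 7.21, 7.40 and 7.17 log2 with SRC-1 siRNA and vehicle, a difference of 0.19 ± 0.08 log2 (SE, adjusted p = 0.165). With non-targeting siRNA it read 7.49, 7.47 and 7.43 log2 under estradiol, against 7.05, 7.31 and 7.28 log2 under vehicle, a difference of 0.25 ± 0.08 log2 (adjusted p = 0.154). The estradiol arrays lay above the vehicle arrays with non-targeting siRNA and overlapped them narrowly with SRC-1 siRNA. CSNK1D, a casein kinase 1 gene, differed by 0.11 log2 (adjusted p = 0.108) and 0.09 log2 (0.285) in these comparisons, and BTRC, the substrate receptor of the ubiquitin ligase, by -0.05 log2 (0.608) and -0.14 log2 (0.228). CSNK1D was called with SRC-1 siRNA without the lowest 40% of probe sets (0.0475) and with a trended and robust variance (0.0219). For the scaffold genes AXIN1 and APC, the casein kinase gene CSNK1A1 and CTNNB1, which encodes beta-catenin, the differences lay between -0.03 and 0.08 log2.

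Dishevelled genes, whose products relay the receptor signal, had estradiol differences between -0.04 and 0.10 log2, and DVL3 with SRC-1 siRNA was the highest (adjusted p = 0.184). The TCF/LEF genes TCF7L1, TCF7L2 and LEF1 had differences between 0.02 and 0.14 log2, with TCF7L1 highest at 0.14 log2 with SRC-1 siRNA (adjusted p = 0.173), and that of LEF1 with non-targeting siRNA turned below 0 under a renewed quantile normalization. Among the inhibitors besides SFRP1, RNF43, a ubiquitin ligase that removes Frizzled receptors from the membrane, read 6.18, 6.25 and 6.34 log2 with SRC-1 siRNA and estradiol, against 6.63, 6.47 and 6.44 log2 with SRC-1 siRNA and vehicle. Its differences were -0.26 log2 (adjusted p = 0.0534) with SRC-1 siRNA and -0.17 log2 (0.328) with non-targeting siRNA. The first was called without the lowest 40% of probe sets (0.0269) and without non-targeting siRNA vehicle replicate 2 (0.0361). ZNRF3, a ligase of the same kind, differed by 0.10 log2 (0.317) and -0.01 log2 (0.975). NKD1 and NKD2, antagonists that bind Dishevelled, lay between -0.18 and 0.02 log2, and DKK3, a Dickkopf family member, at -0.02 log2 (0.837) and -0.13 log2 (0.312). The other DKK3 probe set, with a mean of 5.26 log2, differed in the opposite direction, by 0.14 log2 (0.357) and 0.05 log2 (0.88). DKK1, which blocks LRP5 and LRP6, lay below the lower quartile on all 12 arrays, so its signal is not shown to exceed background.

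The second comparison asks what SRC-1 siRNA did to the same genes under either treatment. None of the 38 passed the limma test, under estradiol, where 1.8% of all probe sets were called (0.732% higher, 1.07% lower), or under vehicle, where 1.21% were (0.265% higher, 0.945% lower). At an unadjusted p under 0.05 there were 2 of 38 under estradiol and 3 of 38 under vehicle, against 4589 and 3691 of 29094. Median differences over the 38 genes were -0.00 log2 under both treatments. Signs were the same under both for 22 of 38 genes (57.9%), against 59% of all probe sets. Each siRNA comparison shares its arrays with the estradiol comparisons.

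LGR4, a receptor for R-spondins that strengthen Wnt signals, had the largest siRNA differences of the group. It read 7.71, 7.60 and 7.54 log2 with SRC-1 siRNA and estradiol, against 7.37, 7.15 and 7.35 log2 with non-targeting siRNA and estradiol. Under vehicle it read 7.92, 7.68 and 7.60 log2 with SRC-1 siRNA, against 7.35, 7.53 and 7.47 log2 with non-targeting siRNA. The siRNA groups did not overlap under either treatment. Its differences were 0.33 ± 0.09 log2 under estradiol (SE, limma adjusted p = 0.103) and 0.28 ± 0.09 log2 under vehicle (adjusted p = 0.197). FZD1 differed by 0.03 log2 under estradiol and 0.18 log2 under vehicle (adjusted p = 0.86 and 0.2), SFRP1 by 0.00 and 0.11 log2 (0.997 and 0.433), and WNT3 by -0.18 and -0.07 log2 (0.206 and 0.717).

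For the destruction complex, the 95% intervals of the siRNA differences reached from -0.18 to 0.23 log2 under estradiol and from -0.14 to 0.21 log2 under vehicle. GSK3A differed by -0.00 log2 (-0.09 to 0.08) under estradiol and 0.03 log2 (-0.06 to 0.11) under vehicle, where its SRC-1 siRNA arrays lay narrowly above the non-targeting ones. GSK3B differed by -0.02 log2 (-0.11 to 0.08) and -0.01 log2 (-0.11 to 0.08), and CTNNB1 by -0.02 log2 (-0.13 to 0.09) and 0.00 log2 (-0.10 to 0.11).

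**Figure D3:**
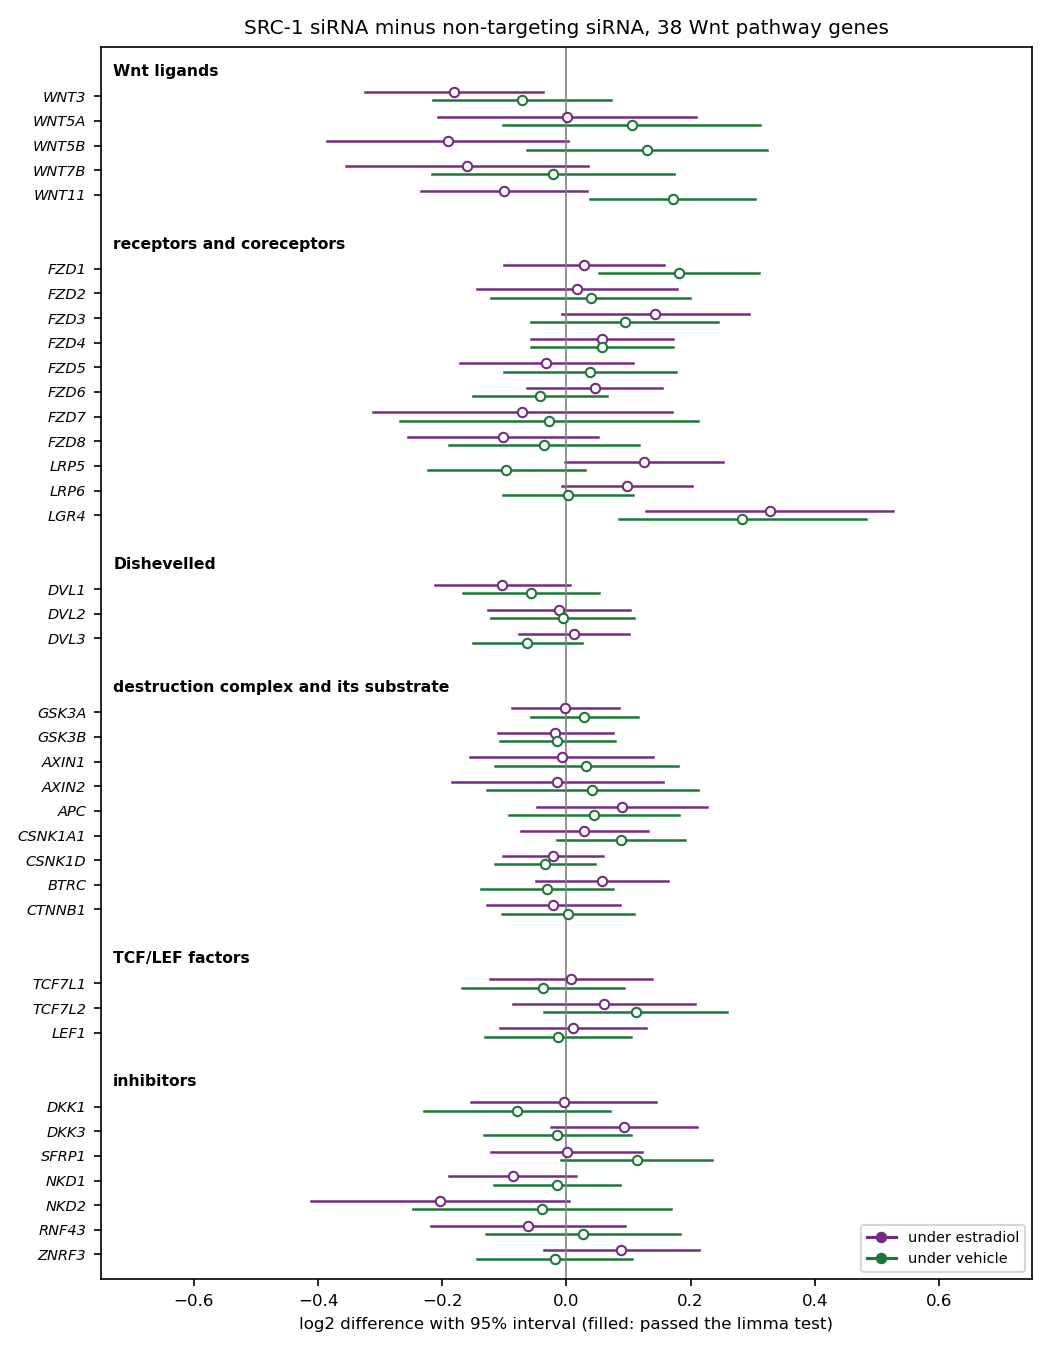
The horizontal axis gives the log2 difference between SRC-1 siRNA and non-targeting siRNA for each of the 38 genes under estradiol (purple) and vehicle (green), with lines for 95% intervals. No point is filled, as no gene passed the test, and LGR4 lies farthest right at 0.33 and 0.28 log2.

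Whether SRC-1 siRNA altered the response to estradiol was tested as the difference between the estradiol effects with the 2 siRNAs. None of the 38 genes was called, and 0 of 29094 probe sets (0%) were in limma. At an unadjusted p under 0.05 there were 3 of 38 genes, against 2102 of all. These were WNT11, at -0.27 log2 (95% interval -0.46 to -0.08, adjusted p = 0.582), WNT5B, at -0.32 log2 (-0.59 to -0.05, 0.647), and LRP5, at 0.22 log2 (0.04 to 0.40, 0.646). The effect was lower with SRC-1 siRNA than with non-targeting siRNA for all 5 ligand genes, with a median difference of -0.14 log2 (for 4 of the 5 with the covariate, where WNT7B was at 0.03 log2), and the median over the 38 genes was -0.03 log2. It was lower for 24 of the 38 genes and for 14811 of all 29094 probe sets. Of the 103 other pathway genes described below it was lower for 59, among them 15 of the 20 on the list of other ligands. The median half-width of the unadjusted 95% intervals over the 38 was 0.183 log2, and differences larger than this, such as that of WNT5B, were not called.

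The other genes of the pathway were followed through 6 lists of 106 genes, of which 103 were measured. With estradiol, 10 were called higher and 9 lower with SRC-1 siRNA, and 7 higher and 6 lower with non-targeting siRNA, beside the 6.88% and 2.73% of all probe sets. Most were nuclear cofactors, cytoplasmic regulators or genes known as beta-catenin targets in other cells. Of 16 nuclear cofactors 3 rose with each siRNA, the same 3: TLE3, a Groucho corepressor that TCF factors bind, BCL9L, which links beta-catenin to its coactivators, and the nuclear kinase HIPK2. TLE3 read 10.47, 10.38 and 10.32 log2 with SRC-1 siRNA and estradiol, against 9.76, 9.74 and 9.80 log2 with SRC-1 siRNA and vehicle, a rise of 0.63 ± 0.04 log2 (SE, limma adjusted p = 8.26e-06). With non-targeting siRNA it rose by 0.71 ± 0.04 log2 (adjusted p = 3.2e-06). The TLE3 call held in every other setting, and no other pathway gene's did so with both siRNAs. BCL9L rose by 0.33 log2 (adjusted p = 0.0021) and 0.46 log2 (0.000245), and HIPK2 by 0.43 log2 (0.00063) and 0.31 log2 (0.00985), and these calls held without any single array. With the covariate BCL9L was called with non-targeting siRNA but not with SRC-1 siRNA (adjusted p = 0.503), and HIPK2 with neither.

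**Figure D4:**
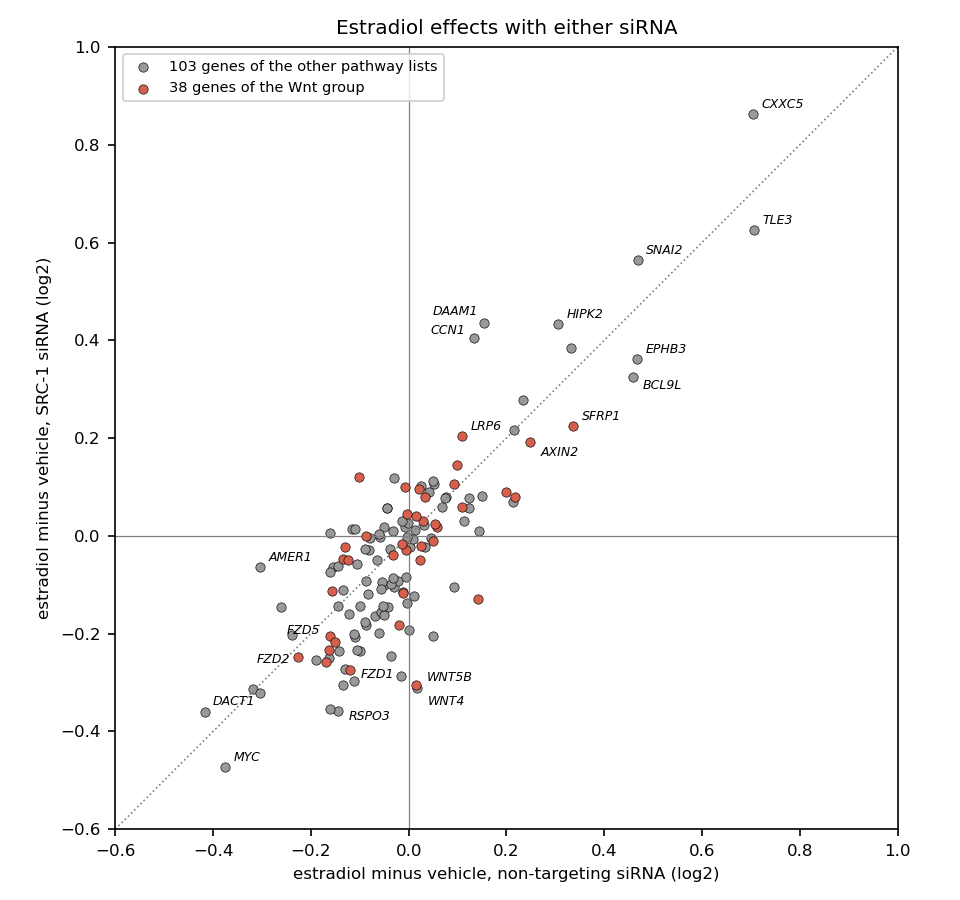
Each point is 1 gene, with its estradiol difference under SRC-1 siRNA on the vertical axis and under non-targeting siRNA on the horizontal axis, both in log2, and the dotted line marks equal differences. CXXC5, TLE3, SNAI2, BCL9L and EPHB3 of the other lists (grey) lie farther from 0 than SFRP1, the highest of the 38 genes (red) at 0.22 log2 with SRC-1 siRNA and 0.34 log2 with non-targeting siRNA.

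Of 21 other cytoplasmic regulators, 2 rose and 2 fell with SRC-1 siRNA, beside calls for 4.49% (higher) and 2.39% (lower) of all probe sets, and 1 rose and 3 fell with non-targeting siRNA, beside 1.85% and 0.873%. CXXC5, known to bind Dishevelled and restrain the pathway, rose by 0.86 ± 0.09 log2 (SE, limma adjusted p = 0.000185) with SRC-1 siRNA and by 0.70 ± 0.09 log2 (0.00106) with non-targeting siRNA. DACT1, another Dishevelled-binding protein, fell by 0.36 log2 (0.0038) with SRC-1 siRNA and by 0.42 log2 (0.00186) with non-targeting siRNA. PRICKLE2, of planar cell polarity, fell by 0.32 log2 (0.0126) and 0.30 log2 (0.0273). DAAM1, a formin that acts beside Dishevelled, rose by 0.44 log2 with SRC-1 siRNA (0.00245), and AMER1, a scaffold of the destruction complex, fell by 0.30 log2 with non-targeting siRNA (0.017), with differences of 0.15 log2 (0.339) and -0.06 log2 (0.559) with the other siRNA. The PRICKLE2 calls held in 9 and 7 of the 12 fits without 1 array and that of AMER1 in 9, with adjusted p up to 0.053, 0.112 and 0.0747. Those of PRICKLE2 were also lost with only the compared arrays. With the covariate only the CXXC5 call with non-targeting siRNA held among these. The other ligands had 2 of 20 called, both lower with SRC-1 siRNA, beside 2.39% of all probe sets: WNT4 by -0.31 log2 (0.00159) and the R-spondin gene RSPO3 by -0.36 log2 (0.0377). Both calls were lost with the covariate (0.377 and 0.783), and that of RSPO3 held in 4 of the 12 fits without 1 array and was lost with a replicate block, a renewed quantile normalization and median centring. With non-targeting siRNA their differences were 0.02 and -0.14 log2. RSPO3 read 5.23 to 5.78 log2 over all arrays, not far above their lower quartiles, 5.13 to 5.19 log2. It was among the lowest 40% of probe sets and so absent from the fit without them. With the fit as described, no gene was called in any comparison among 11 other receptors, of which RYK, at 11.11, 11.10, 11.09 and 11.08 log2 in the 4 groups, had the highest mean, or among 14 other secreted and membrane inhibitors, of which KREMEN2, at 8.17, 8.40, 8.23 and 8.37 log2, had the highest. With a replicate block the receptor gene FZD9 (adjusted p = 0.0273) and the inhibitor genes SFRP5 (0.0126), KREMEN2 (0.0228) and APCDD1 (0.0434) were called lower for estradiol with SRC-1 siRNA, and FZD9 and APCDD1 also were without the lowest 40% of probe sets, with a trended and robust variance and with array weights (0.0293 to 0.0463).

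Among 21 genes known as beta-catenin targets, 5 rose and 5 fell with SRC-1 siRNA, and 3 rose and 3 fell with non-targeting siRNA, beside 4.49% and 2.39% of all probe sets in the first comparison and 1.85% and 0.873% in the second. The median differences were -0.10 and -0.04 log2. The list held no common direction. SNAI2, a repressor of E-cadherin, rose by 0.56 ± 0.05 log2 (SE, limma adjusted p = 2.61e-05) and 0.47 ± 0.05 log2 (0.000124), whereas MYC, a growth-promoting transcription factor, fell by 0.47 log2 (0.000219) and 0.38 log2 (0.00153). CCN1, a matrix-associated signalling protein, rose by 0.41 log2 (0.00108) and FOSL1, an AP-1 subunit, fell by 0.31 log2 (0.0114) with SRC-1 siRNA. With non-targeting siRNA their differences were 0.13 log2 (0.308) and -0.13 log2 (0.365). EPHB3, an ephrin receptor, rose with both siRNAs, by 0.36 log2 (0.0325) with SRC-1 siRNA and 0.47 log2 (0.0145) with non-targeting siRNA, and JUN, another AP-1 subunit, fell with both, by 0.20 log2 (0.0286) and 0.24 log2 (0.0215). The calls of SNAI2, MYC, CCN1 and FOSL1 held without any single array. With SRC-1 siRNA those of EPHB3 and JUN each held in 8 of the 12 such fits (adjusted p up to 0.12 and 0.102), and with non-targeting siRNA in 8 and 7 (up to 0.0591 and 0.0932). With the covariate SNAI2 and MYC were called with non-targeting siRNA only, where EPHB3 also was, and CCN1, FOSL1 and JUN were not. The calls of FOSL1 and EPHB3 with SRC-1 siRNA were also lost with only the compared arrays. Those of JUN with both siRNAs were lost there and with median centring.

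**Figure D5:**
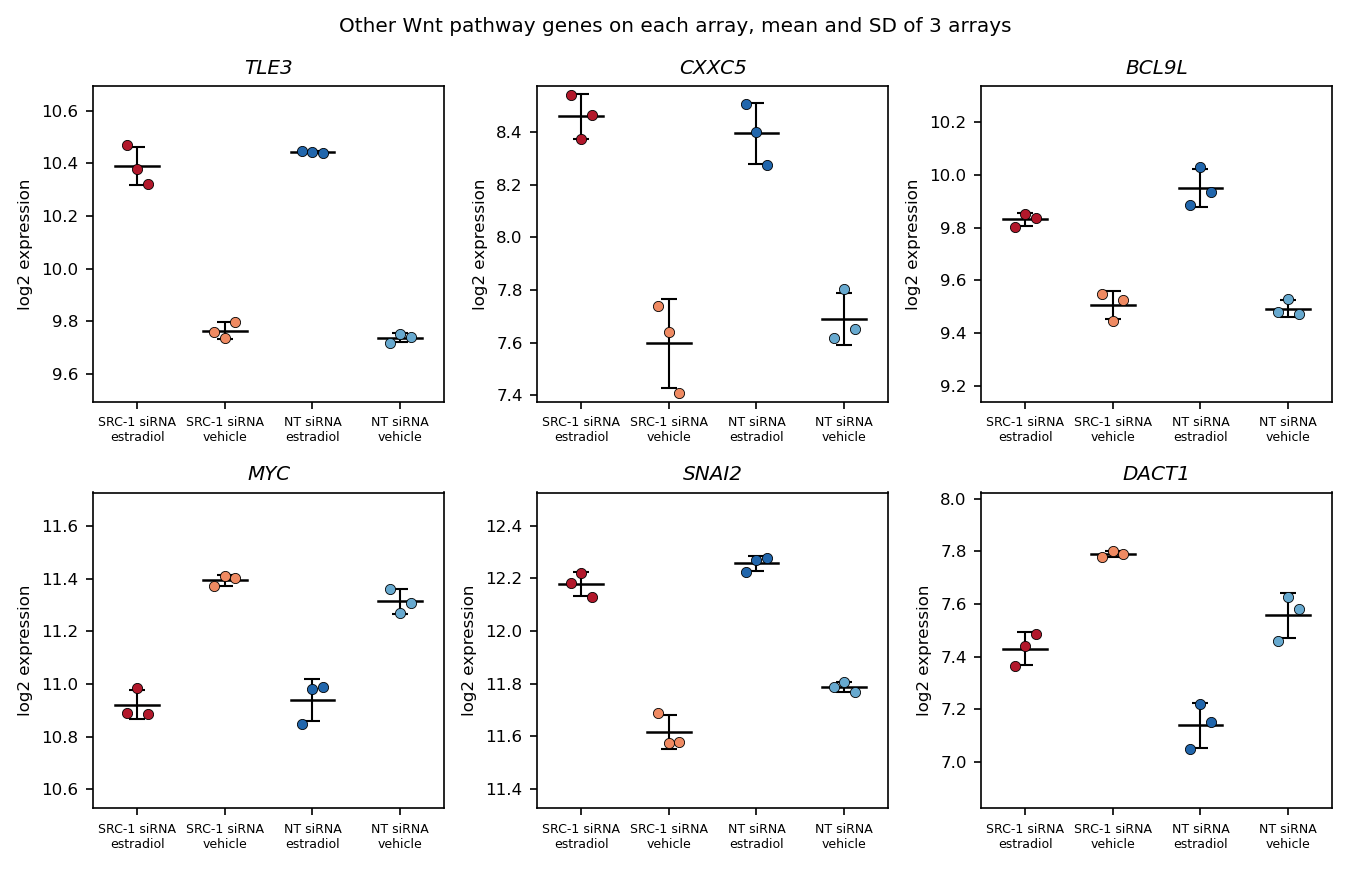
Log2 expression on each array is shown for 6 genes of the other pathway lists, with the 4 groups along the horizontal axis, lines for the mean and bars for the SD (n = 3). TLE3, CXXC5, BCL9L and SNAI2 lie higher and MYC and DACT1 lower on every estradiol array than on the vehicle arrays of the same siRNA.

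Among the 103 other genes, SRC-1 siRNA gave 4 calls under estradiol and 3 under vehicle. Over every probe set tested, the called shares were 1.8% and 1.21%. The estradiol calls were 3 higher and 1 lower, beside shares of 0.732% (higher) and 1.07% (lower). Those under vehicle were 0 higher and 3 lower, beside 0.265% and 0.945%. CD44, a hyaluronan receptor, fell under both treatments, by 0.28 log2 (limma adjusted p = 0.00731) and 0.23 log2 (0.0233). DAAM1 rose by 0.42 ± 0.07 log2 (SE, 0.00902), DACT1 by 0.29 log2 (0.0316) and JUN by 0.23 log2 (0.041) under estradiol. HIPK2 fell by 0.28 log2 (0.0328) and CCN1 by 0.34 log2 (0.0115) under vehicle. The calls of DAAM1 and of CD44 under estradiol held without any single array and were missed with the covariate (adjusted p = 0.163 for DAAM1), and that of CD44 was also missed with only the compared arrays (0.0715). The calls of CD44 under vehicle, DACT1, JUN, HIPK2 and CCN1 held in 6, 5, 1, 3 and 10 of the 12 fits without 1 array. Each of them was lost with only the compared arrays. Those of DACT1 and JUN were also lost with the covariate. That of JUN was lost with a replicate block, with median centring and with the controls tested as well. The left-out probe sets had a mean deviation 0.102 log2 higher with SRC-1 siRNA than with non-targeting siRNA under estradiol, without overlap. Under vehicle this difference was -0.0147 log2, with overlap. None of the genes called here had a called difference between the estradiol effects.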

How the data were processed

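RNA of 12 cultures was hybridised to Affymetrix Human Gene 1.0 ST arrays. The authors processed them with the affy package and deposited a log2 value for each probe set, per the series' design text, and no further scaling was applied here. Versions, background correction and genome build are not given in the sources used here. The table holds 33297 probe sets. From their identifiers, 4203 that precede 7896740, the first one annotated to a gene, were inferred to be controls and left out. Groups come from the sample titles. limma 3.58.1 in R 4.3.3 fitted a mean per group to all 12 arrays (3.15 prior and 8 residual degrees of freedom). Tests were two-sided, and p-values were adjusted over all 29094 tested probe sets. The thresholds are the study's, and precision is limited by the number of arrays. The fit was tested on simulated data.

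The 40 genes and the other lists were chosen with earlier results of these data known. Per-array values are given for called genes of the group, GSK3A and GSK3B, and others chosen after their values were seen. From each other list up to 4 called genes per comparison with the smallest p are named, or the 1 with the highest mean, and FZD9, FZD10, SFRP5 and APCDD1 were added after their values were seen. Alternatives were a replicate block, the compared arrays only, no dim probe sets, other scalings, variances and weights, the controls tested or as a covariate, another probe set, an adjusted p alone, and each array left out.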

Additional observations from a re-analysis of the deposited data

Results flagged for a closer look

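The probe sets left out as array controls carried a signal that moved with treatment. Their mean deviation from the average over all arrays was 0.135 ± 0.0419 log2 with SRC-1 siRNA and estradiol, against -0.0909 ± 0.0672 log2 with SRC-1 siRNA and vehicle (SD, n = 3 each). With non-targeting siRNA it was 0.0323 ± 0.0356 log2 under estradiol, against -0.0762 ± 0.0425 log2 under vehicle. Estradiol and vehicle arrays did not overlap with either siRNA, and all 5 calls among the 38 genes are estradiol effects. None of the 38 genes had a called difference between its estradiol effects.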

How the results depend on the processing

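In the 38 genes, estradiol with SRC-1 siRNA gave 4 calls, but 0 when fitted to the 6 compared arrays alone, 9 without the lowest 40% of probe sets by mean, 8 with a trended and robust variance and 0 with the control probe sets as a covariate. Those added in the 9 were WNT5B, FZD2, FZD8, CSNK1D and RNF43, and in the 8 the same without RNF43. Array weights gave 6, with WNT5B and FZD8 added. Leaving out single arrays gave 0 to 6: among the SRC-1 siRNA arrays, lacking estradiol replicate 1, 2 or 3 left 1 call (FZD5, FZD1 and SFRP1 in that order), lacking vehicle replicate 2 or 3 left 0, and lacking vehicle replicate 1 gave 6. Lacking non-targeting estradiol replicate 1 left 2. The replicate block gave 4 calls again, with WNT5B (adjusted p = 0.0427) in place of FZD5 (0.0638). Replicate numbers were shared between groups. The deviations of same-numbered arrays had correlations of -0.035 to 0.21, and 9 of 12 arrays were closest to their own number among the 3. Nothing says that a number marks a shared day, and whether it does was not tested. Estradiol with non-targeting siRNA gave 1 call, 1 to 1 without single arrays, 1 with the replicate block and 0 with the covariate. SRC-1 siRNA under estradiol gave 0 calls, 0 to 0 without single arrays, 0 with the replicate block and 1, LGR4, without the lowest 40% (adjusted p = 0.0479) or with a trended and robust variance (0.0433). Under vehicle it gave 0, and 0 to 1 without single arrays, the 1 being FZD1 when SRC-1 siRNA vehicle replicate 1 is left out (0.0433). The difference of the estradiol effects gave 0, 0 to 0 without single arrays and 0 with the replicate block. The cause of these shifts was not tested. Of 44 calls followed in 141 genes, 22 held without any single array, 34 were lost with the covariate and 0 turned in sign. Signal over background was not measured, and DKK1 lay below the lower quartile on every array. For the difference of effects, a fit of only the compared arrays is the fit reported.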
